A study of Mus musculus with 12 samples.

Results

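Brain RNA from formalin-fixed, paraffin-embedded (FFPE) blocks was compared with RNA from fresh-frozen (FF) brain of the same study on whole-genome mouse expression arrays. The members are all probe sets of the array other than the manufacturer's controls, read on the 3 FFPE brain arrays and the 3 FF brain arrays, which are 6 of the 12 arrays of the series. Of 45141 probe sets, 104 controls were set aside and 45037 remained, all of which were used. A probe set is a group of short probes read out as 1 value. Of the 45037, 28899 were listed with 1 gene, 550 with several genes and 15588 with none, and the first kind covered 17098 genes. The series asks how well RNA from fixed blocks stands in for RNA from frozen tissue at several times after death.

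All tissue came from 10-week-old male BALB/c mice with no allele, drug or other treatment in the labels. The FFPE brain group holds 1 array each from tissue collected 0 h after death, after 3 h at room temperature and after 18 h at 4 °C. This tissue lay in 10% formalin for 24 h, was kept as paraffin blocks for 7 d at room temperature and was cut at 10 µm, and its RNA was amplified with a whole-transcript kit made for FFPE material and hybridised as labelled DNA. The FF brain group holds 1 array at each of the same times, from tissue kept in a stabilising solution (RNAlater), whose RNA was turned into labelled antisense RNA by in vitro transcription from the 3′ end. Preservation, extraction kit, labelling kit and target molecule always changed together, so their contributions cannot be told apart. Time and storage temperature also changed together. The labels give neither the brain region, nor the number of animals, nor whether FFPE and FF tissue of a time came from 1 animal, so the p-values measure the spread between these arrays.

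Formalin links RNA to proteins and to itself and leaves it in short pieces, and RNA from fixed blocks often lacks an intact run from the poly(A) tail into the message. A 3′ in vitro transcription kit copies RNA from the poly(A) tail and reads the stretch next to it. Whole-transcript kits for fixed tissue also start from random primers along the RNA, so they can read pieces that have lost the tail. Most probe sets of this array design lie near an annotated 3′ end, and several probe sets of a gene often lie at different ends or in different stretches of its transcripts. No probe sequence or probe position was used here, so the probe sets below are known by their identifiers and their listed gene.

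All values are deposited log2 intensities, in which a difference of 1 is 2-fold, and every difference below is FFPE minus FF. Array medians were 4.87 to 4.89 in FFPE and 4.67 to 4.68 in FF brain. The FFPE arrays were narrower, with an SD over probe sets of 1.48 to 1.51 against 1.83 to 1.85 in FF. Between 5.51% and 5.86% of probe sets reached 8 on an FFPE array, against 10.5% to 10.8% on an FF array. Pearson's r over probe sets was 0.989 between FFPE arrays, 0.992 to 0.995 between FF arrays and 0.770 to 0.780 between the FFPE and the FF array of a time. They describe the arrays only, since probe sets do not replicate a condition. Brain identity was checked on markers, and the 5 neuronal ones (Snap25, Syt1, Rbfox3, Tubb3 and Nefl) had group means of 8.73 to 12.58 in FFPE and 8.92 to 12.06 in FF brain. Hepatocyte markers averaged higher at 0 h than later in both kinds of tissue, more so in FF. The mean of 6 such markers was 5.77, 4.62 and 4.57 in FFPE, against 7.80, 5.23 and 4.90 in FF at 0, 3 and 18 h. Of the 6, Mup3 fell most in FFPE. The hepatocyte results are given with and without the 0 h pair.

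Most of the measured brain transcriptome read differently in fixed and frozen tissue, in both directions. With limma, time as a block and Benjamini-Hochberg adjustment over all 45037 probe sets, 17897 probe sets (39.7%) were higher and 16125 (35.8%) were lower in FFPE at an adjusted p under 0.05. As 75.5% of probe sets passed in either direction, the text below uses calls that also reached 2-fold. Of these, 5554 (12.3%) were higher and 8914 (19.8%) were lower, 32.1% in all. After quantile normalization of the same arrays the calls were nearly balanced, 6128 higher and 6519 lower, and with the arrays shifted to a common median they were 4040 higher and 10456 lower. The share of higher calls among them was thus 38.4% as deposited, 48.5% after quantile normalization and 27.9% after the shift to a common median.

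By probe set, decreases outnumbered increases up to 8-fold and increases outnumbered decreases from 16-fold on. At 4-fold and more, 1196 probe sets were higher and 3072 lower. At 16-fold and more, 95 were higher and 61 lower, and at 32-fold and more, 27 were higher and 4 lower. By gene, decreases outnumbered increases at 16-fold too, with 11 higher and 17 lower. In all 3 FFPE arrays together, 19359 probe sets (43%) lay above all 3 FF arrays and 16712 (37.1%) lay below all of them.

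The difference repeated closely across the times. All 14468 calls of at least 2-fold had the same sign in each of the 3 time pairs, which choosing them by these same pairs largely fixes. The range of their 3 pair differences had a median of 0.33, beside 0.28 over all 45037 probe sets. Only 182 of the 14468 calls (1.26%) had pair differences that spanned 1 or more. The median SD over 3 arrays was 0.103 in FFPE and 0.101 in FF brain. The pair differences of any 2 times, which share no array, correlated at r = 0.968 to 0.971 across probe sets.

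Some probe sets were bright in 1 kind of tissue and dim in the other. At 10 or more on all 3 FFPE arrays there were 508 probe sets, of which 9 lay below 5 on all 3 FF arrays. At 10 or more on all 3 FF arrays there were 822 probe sets, of which 2 lay below 5 on all 3 FFPE arrays. At the lower bar of 8, 66 of 2323 probe sets high in FFPE were below 5 in FF, 67 of 4457 high in FF were below 5 in FFPE, and 1834 were high in both.

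**Figure D1:**
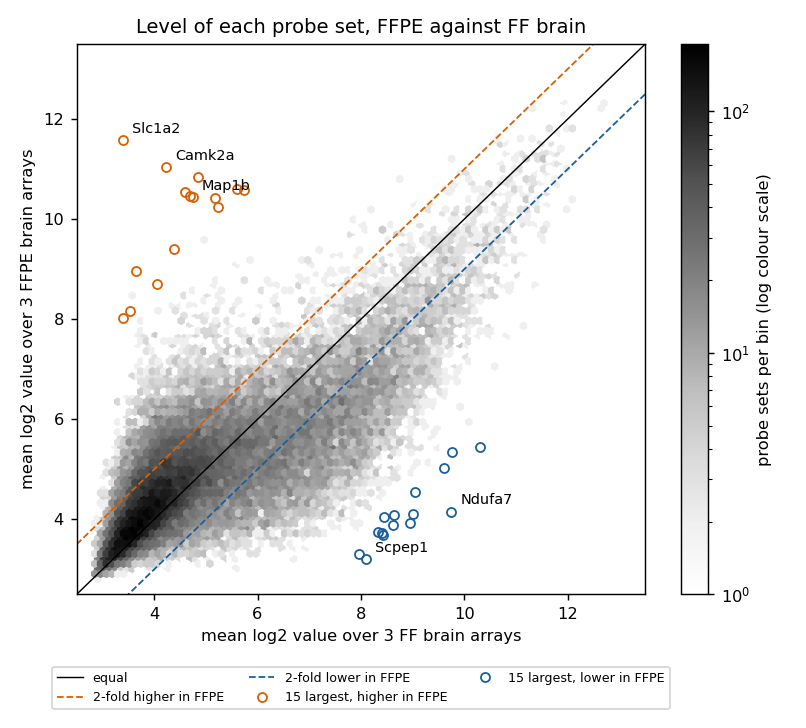
Mean log2 value of each of 45037 probe sets over 3 FFPE brain arrays (vertical axis) and over 3 FF brain arrays (horizontal axis), as counts per hexagon on a log colour scale, with lines for equality and for 2-fold higher or lower. The open circles are the 15 largest increases, which sit at 8.03 to 11.58 in FFPE and 3.40 to 5.73 in FF, and the 15 largest decreases.

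The largest increase with a named gene was a probe set of Slc1a2 (1459014_PM_at), the astrocyte glutamate transporter that clears transmitter from the synapse. It read 11.51, 11.58 and 11.66 on the FFPE arrays of 0, 3 and 18 h, against 3.44, 3.41 and 3.36 on the FF arrays. The difference was 8.18 (SE 0.09, adjusted p = 6.43e-08, limma), and the groups lay far apart. FF values this low lie close to background, as nonspecific controls reached 3.83 in FF brain, so the fold is not exact here or for other probe sets with a side under 4. The other Slc1a2 probe set was also higher, by 3.36.

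Several of the largest increases came from genes of the synapse and the neuronal skeleton. Camk2a, the alpha subunit of the calcium/calmodulin kinase of the postsynaptic density, had a probe set (1452453_PM_a_at) at 11.02, 10.98 and 11.13 in FFPE, against 4.12, 4.21 and 4.36 in FF, a difference of 6.81. Vamp2 encodes the vesicle SNARE of transmitter release, and its probe set 1420833_PM_at read 10.81, 10.80 and 10.92 in FFPE, against 4.53, 5.03 and 5.01 in FF. The other Vamp2 probe set differed by -0.21. Bsn, a scaffold of the presynaptic active zone, read 10.06, 10.19 and 10.45 in FFPE, against 5.59, 5.06 and 5.04 in FF on 1450467_PM_at. Map1b, a microtubule-binding protein of growing axons, read 10.52, 10.42 and 10.36 in FFPE, against 4.77, 4.79 and 4.70 in FF on 1421850_PM_at. On these probe sets of the 4 genes the groups were separated by more than 4 log2 units on every array. The other Map1b probe sets differed by 3.95 and -0.07, and those of Bsn by 2.25 and 0.28. Other Camk2a probe sets ranged from -3.21 to 5.21.

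Tubulin and its partners were among them as well. Tubb2a, a beta tubulin of neurons, had 1 probe set (1427838_PM_at) higher by 5.26 and another that differed by -0.01. Dpysl2, which binds tubulin in axon growth, had 1 probe set (1450502_PM_at) higher by 5.03 and another that differed by -0.31. Ttll7, an enzyme that adds glutamate chains to tubulin, was higher by 4.64 on 1430615_PM_at, and its other probe set differed by -1.36. For these genes the increase therefore belonged to a single probe set.

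Next by role came a surface protein and a pair of genes of membrane compartments. Cd47, the surface signal that restrains phagocytes, read 10.52, 10.47 and 10.66 in FFPE, against 4.53, 4.65 and 4.59 in FF on 1459908_PM_at. Rab2a, a small GTPase of transport between endoplasmic reticulum and Golgi, was higher by 5.78 on 1419946_PM_s_at. Atp6v0a1, a membrane subunit of the vacuolar proton pump, was higher by 5.30 on 1425227_PM_a_at. The remaining 4 were Srgap3 (4.64), R3hdm1 (5.0), Irf2bp2 (4.85), a transcriptional corepressor, and 1810014B01Rik (4.65). The other R3hdm1 probe sets were lower by 1.16 and 0.85, those of Irf2bp2 ranged from -1.08 to 3.5, and those of 1810014B01Rik differed by -0.21 and -0.20. The other Srgap3 probe set differed by -2.08, and those of Atp6v0a1 ranged from -0.25 to 2.39. All 15 probe sets named as the largest increases had adjusted p-values of at most 4.62e-07 (limma).

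The largest decrease with a named gene was a probe set of Ndufa7 (1436567_PM_a_at), a subunit of respiratory complex I. It read 4.01, 4.30 and 4.16 in FFPE, against 9.74, 9.77 and 9.74 in FF, a difference of -5.59 (SE 0.09, adjusted p = 2.00e-07, limma). The other 4 Ndufa7 probe sets were lower by 1.5 to 2.20. Stx6, a SNARE of the trans-Golgi network, read 4.04, 3.84 and 3.93 in FFPE, against 9.01, 8.91 and 8.94 in FF on 1460004_PM_x_at. The other Stx6 probe sets ranged from -1.89 to 1.14, and both ends passed the test. Scpep1, a serine carboxypeptidase, read 3.19, 3.18 and 3.24 in FFPE, against 8.20, 7.89 and 8.19 in FF on 1455908_PM_a_at. The other Scpep1 probe set differed by 0.04.

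RNA and ribosome genes were among the decreases. Sf3b6, a subunit of the SF3b splicing complex, was lower by 4.89 on 1417054_PM_a_at, and its other probe sets differed by -3.38 and -0.05. Snrnp40, a protein of the U5 small nuclear ribonucleoprotein, was lower by 4.57 on 1452713_PM_a_at, and its other probe set differed by -0.13. Rpl37, a protein of the large ribosomal subunit, was lower by 4.40 on 1438291_PM_x_at. Other Rpl37 probe sets ranged from -3.44 to 1.28, and ribosomal protein genes have many near-identical pseudogene copies, which makes a single probe set of them uncertain. C1qbp, a mitochondrial matrix protein, read 5.21, 5.62 and 5.51 in FFPE, against 10.25, 10.35 and 10.32 in FF on 1455821_PM_x_at. Slc25a39, a carrier of the inner mitochondrial membrane, was lower by 4.59 on 1439410_PM_x_at. Its FFPE values there of 5.05, 5.46 and 4.54 were the most scattered of the 15. The other Slc25a39 probe sets ranged from -1.85 to 0.62, and both ends passed the test.

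The remaining decreases were Cnn3 (-4.73) and Cotl1 (-4.69), which bind actin, Scand1 (-4.72), a SCAN-domain protein, Cmtm6 (-4.65), a membrane protein that stabilises the PD-L1 ligand, Klf9 (-4.58), a transcription factor induced by glucocorticoid and thyroid hormone, Rabac1 (-4.40), which binds prenylated Rab proteins, and 1110008P14Rik (-4.49). The other probe sets of 1110008P14Rik differed by -2.37 and 1.42, both past the test. The other Cmtm6 probe set differed by 0.25 and that of Cnn3 by -3.25. Those of Klf9 ranged from -3.05 to 0.31 and those of Cotl1 from -0.92 to -0.33. Identifiers ending in _a_at or _x_at, which mark probe sets that read several transcripts of a gene or cross-hybridise, made up 12 of the 15 largest decreases and 2 of the 15 largest increases. Over all probe sets with 1 gene listed, the share called lower was 21.2% for _at, 28.1% for _a_at, 33.7% for _s_at and 26.7% for _x_at.

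**Figure D2:**
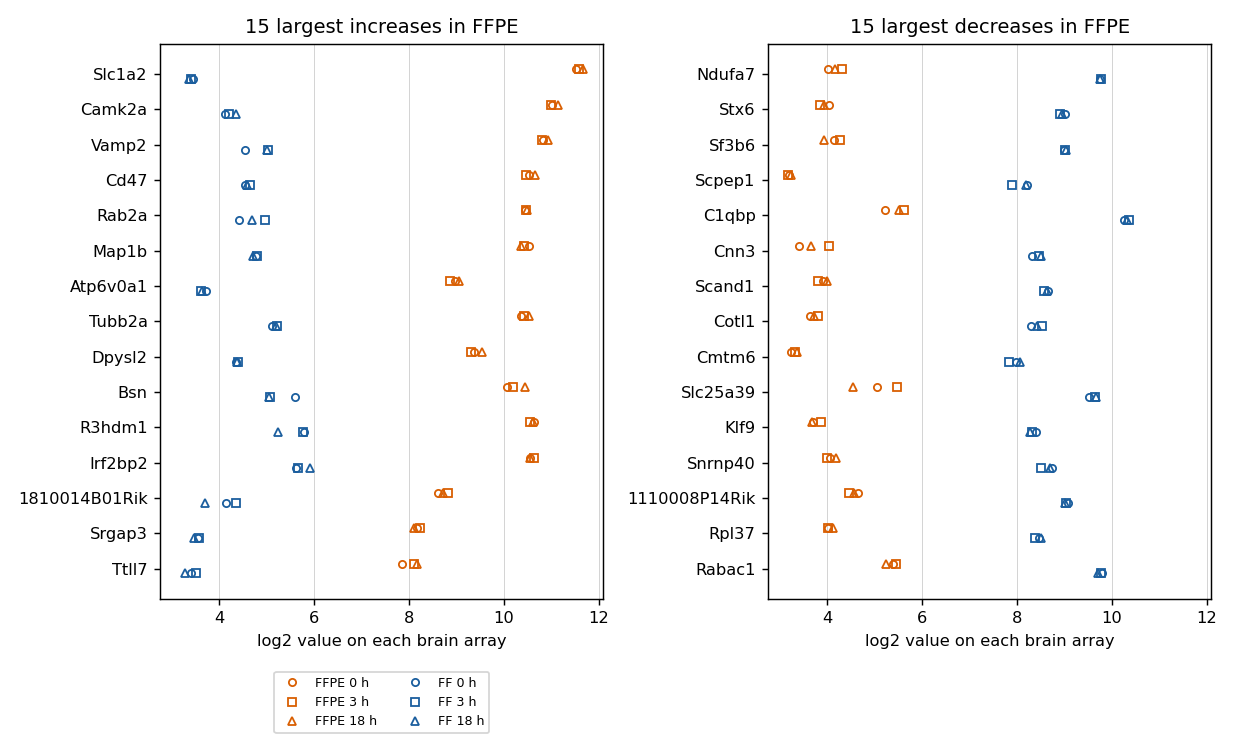
Log2 values on each brain array of the 15 largest increases (left) and decreases (right), 1 per gene among probe sets with 1 listed gene. FFPE is in orange above FF in blue, with a marker for each time. On every row the 3 FFPE values and the 3 FF values form separate clusters, as for Slc1a2 at 11.51 to 11.66 in FFPE and 3.36 to 3.44 in FF.

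Probe sets with no listed gene reached the same sizes. Probe set 1455930_PM_at averaged 12.55 in FFPE and 4.59 in FF brain, a difference of 7.97. Probe set 1443798_PM_at was lower by 8.29, and it was the lowest of all 45037. Probe sets with no gene listed were called higher in 12.7% and lower in 13.8% of 15588 cases, against 12.1% and 23.0% of the 28899 with 1 gene.

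By gene, the balance lay further toward lower values in fixed brain. Of several probe sets of a gene, the one that averaged highest across the 6 brain arrays was used. At an adjusted p under 0.05 and at least 2-fold, 1667 of 17098 genes (9.75%) were higher and 4570 (26.7%) were lower in FFPE. Without the fold, 5822 (34.1%) were higher and 7642 (44.7%) lower, 78.7% in all, and with it 36.5% were called. The median difference over all genes was -0.09 as deposited, -0.06 after quantile normalization and -0.30 with the arrays shifted to a common median. After quantile normalization 2061 of the 17098 genes were higher and 3047 lower by at least 2-fold. The share of higher genes among the 2-fold calls was 26.7% as deposited, 40.3% after quantile normalization and 17.8% after the shift.

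As deposited, the direction went with the level of the gene. That level is the mean of the same 6 arrays that give the difference. As the FFPE arrays were narrower, higher values for dim genes and lower ones for bright genes are partly fixed by this choice. Of 7058 genes that averaged under 5 over the 6 arrays, 10.5% were higher and 3.85% lower by at least 2-fold, with a median difference of 0.25. Of 4646 genes at 6 to 8, 5.42% were higher and 53.6% lower, with a median of -1.10. Of the 294 genes at 10 and more, 5.44% were higher and 26.9% lower, with a median of -0.46. Gene groups expressed at middle levels in brain are therefore to be read against these shares as well as against all genes.

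Genes that identify neurons had calls in both directions, at shares of lower calls like those of all genes at their level. Among 30 genes of neuronal cytoskeleton and identity, 2 were higher and 11 lower (36.7%) by at least 2-fold, with a median of -0.62. After quantile normalization the median was -0.12, with 4 higher and 7 lower, beside 2061 and 3047 of all 17098 genes. Of all genes, 48.9% were lower at levels of 8 to 10 and 26.9% at 10 and more. Tubb4a, a beta tubulin of neurons and oligodendrocytes, read 10.51, 11.03 and 10.94 in FFPE, against 8.20, 8.35 and 8.28 in FF. Map2, the dendritic microtubule protein, was the other higher gene, at 8.67, 8.37 and 8.76 in FFPE, against 6.37, 6.36 and 6.24 in FF. Rbfox3, the splicing factor known as NeuN, read 8.71, 8.99 and 8.97 in FFPE, against 11.85, 11.84 and 11.69 in FF. The neurofilaments Nefh and Nefm were lower by 2.57 and 2.27, and the RNA-binding protein Elavl2 by 2.16. Snap25, the synaptic SNARE, was higher by 0.52, which passed the test but not 2-fold. Standard errors of the list genes named here ran from 0.08 to 0.55, the largest being that of Cyp3a11, and Cyp3a11 also had the highest adjusted p of those called, 0.0248 (limma).

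Markers of neuron classes were lower in 46.2% to 54.5% of cases by at least 2-fold, beside 53.6% of all genes at levels of 6 to 8 and 48.9% at 8 to 10. Of 13 excitatory markers 0 were higher and 6 lower by at least 2-fold by limma, while 1 was higher and 11 were lower with no fold asked. Neurod6, a transcription factor of cortical excitatory neurons, read 4.47, 4.92 and 4.47 in FFPE, against 8.12, 8.52 and 8.37 in FF. Slc17a6, a vesicular glutamate transporter, was lower by 2.77. Of 15 inhibitory markers 2 were higher and 8 lower. Gad2, a GABA-synthesising enzyme, was higher by 1.83 and Lhx6, a factor of cortical interneurons, by 1.07, while the peptides Vip and Cck were lower by 2.91 and 2.79 and the secreted protein Reln by 2.56. Of 11 markers of striatal projection neurons 1 was higher, Ppp1r1b at 1.02, which encodes the dopamine-regulated phosphatase inhibitor DARPP-32, and 6 were lower. Pde10a, the striatal phosphodiesterase, was lower by 2.52 on the probe set used, although its probe sets ranged from -2.52 to 3.72 and their mean was 0.88.

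The machinery of the synapse held calls both ways. Of 42 genes of synaptic vesicles and release, 4 (9.52%) were higher and 13 (31.0%) lower by at least 2-fold, near the 9.75% and 26.7% of all genes. At levels of 8 to 10, 48.9% of all genes were lower. The median of the 42 was -0.64 and turned to 0.12 after quantile normalization. Syp, the vesicle protein synaptophysin, read 10.72, 10.81 and 10.89 in FFPE, against 8.84, 8.93 and 8.64 in FF, but its other probe set was lower by 2.02. Syn3, a synapsin, was higher by 2.31, although with the probe set of highest FF level it differed by -2.66. Syt7 and Cplx2, a calcium sensor and a clamp of vesicle fusion, were higher by 1.27 and 1.18, but Syt7 differed by -2.35 on its probe set of highest FF level and Cplx2 by -0.09 as the mean of its probe sets. Amph, which bends membrane in vesicle retrieval, read 6.18, 6.52 and 6.23 in FFPE, against 9.52, 9.57 and 9.53 in FF. Napa, which helps take SNARE complexes apart, was lower by 3.05.

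On the postsynaptic side, 3 of 31 scaffold and signalling genes (9.68%) were higher and 12 (38.7%) lower, beside 9.75% and 26.7% of all genes. At levels of 8 to 10, 48.9% of all genes were lower. The postsynaptic median was -0.77 (-0.09 after quantile normalization). Nlgn1, the adhesion protein neuroligin 1, read 7.52, 7.35 and 7.46 in FFPE, against 3.87, 3.85 and 3.78 in FF. The scaffolds Shank1 and Homer3 were higher by 1.80 and 1.02. Ppp3r1, the regulatory subunit of calcineurin, was lower by 2.80 on the probe set used, while its 3 probe sets ranged from -2.80 to 2.65. Psd3, an exchange factor of the postsynaptic density, was lower by 2.29.

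Receptors and channels were spread widely. Of 37 glutamate and GABA receptor subunits 4 (10.8%) were higher and 11 (29.7%) lower, near the 9.75% and 26.7% of all genes. Their median of -0.39 became 0.12 after quantile normalization. The higher ones were Gabrg3 (2.56), Grin2a (2.01), Grin3b (1.63) and Grik4 (1.25), of which Gabrg3 differed by -0.25 on its probe set of highest FF level. Grik3 and Gabra3 were lower by 2.79 and 2.56. Of 61 voltage-gated channel subunits 6 (9.84%) were higher and 23 (37.7%) lower, beside the same shares of all genes. Their median was -0.38 (-0.22 after quantile normalization, and 0.08 over all probe sets of the members). Cacna1e, the pore subunit of R-type calcium channels, read 7.62, 7.57 and 7.49 in FFPE, against 4.29, 4.18 and 4.05 in FF. Kcnh7, a potassium channel, was higher by 2.29, while the potassium channel partner Kcnab1 was lower by 2.84 and the sodium channel beta subunit Scn3b by 2.47.

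Neuropeptides and activity genes also had members at both ends. Of 30 neuropeptide genes 5 (16.7%) were higher and 12 (40%) lower, with a median of -0.39. Of all genes 9.75% were higher and 26.7% lower. Oxt and Avp, the hypothalamic hormones oxytocin and vasopressin, were higher by 1.60 and 1.30, and Scg2, a granule protein, was lower by 2.49. Neurons switch on immediate early genes within minutes of activity or stress. Of 33 such genes 0 were higher and 14 (42.4%) lower by at least 2-fold by limma, beside 53.6% of all genes at levels of 6 to 8. With no fold asked 4 immediate early genes were higher and 27 lower. Fos read 5.97, 6.94 and 6.48 in FFPE, against 9.40, 9.82 and 9.48 in FF. Junb and Nr4a1 were lower by 2.89 and 2.68. All FFPE values of Fos lay below all its FF values, as for 37.1% of all probe sets.

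Astrocyte markers were lower in 52.4% and oligodendrocyte genes in 42.3% of cases by at least 2-fold, which is near the 53.6% and 48.9% of all genes at levels of 6 to 8 and 8 to 10. Of 21 astrocyte markers 2 were higher and 11 lower by at least 2-fold, with a median of -1.08 (-0.52 after quantile normalization). The higher ones were Slc1a2, described above, and Gfap, the astrocyte intermediate filament, which was higher by 1.31 on its probe set of highest mean but lower by 1.66 on its probe set of highest FF level. Apoe, the lipid carrier made by astrocytes, read 8.16, 8.15 and 8.43 in FFPE, against 11.18, 11.03 and 11.30 in FF. Mt1, a metal-binding protein, was lower by 3.23, the calcium-binding S100b by 2.91 and the folate enzyme Aldh1l1 by 2.25.

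Of 26 oligodendrocyte and myelin genes 1 was higher, the transcription factor Nkx6-2 at 1.00, and 11 were lower, with a median of -0.88 (-0.30 after quantile normalization). Olig1 and Olig2, the transcription factors of the lineage, were lower by 3.10 and 2.88, the pterin-recycling enzyme Qdpr by 3.15 and the myelin glycoprotein Mag by 2.5. Of 6 markers of oligodendrocyte precursors 0 were higher and 2 lower by at least 2-fold by limma, while 2 were higher and 4 lower with no fold asked. Of 19 microglia markers 0 were higher and 11 lower (57.9%) by at least 2-fold by limma. Of all genes 26.7% were lower, with 28.4% at levels of 5 to 6 and 53.6% at 6 to 8. The microglia median was -1.14 (-0.92 after quantile normalization). C1qa, a chain of the first complement component, read 4.13, 4.57 and 4.21 in FFPE, against 8.01, 7.84 and 8.08 in FF. Ctss, a lysosomal protease, was lower by 2.46, and Fcrls was higher by 0.90, the only microglia marker that passed the test as higher. In bulk tissue fewer cells of a type and less RNA read per cell cannot be told apart.

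Of 18 endothelial and pericyte markers 1 was higher and 8 lower (44.4%), with a median of -0.73. Of all genes at levels of 5 to 6 and of 6 to 8, 28.4% and 53.6% were lower. Cldn5, the tight junction protein of the blood-brain barrier, read 5.08, 5.14 and 5.08 in FFPE, against 7.29, 6.95 and 7.48 in FF, and the barrier transporter Slco1a4 was lower by 2.06. Pdgfrb, the pericyte receptor, was the higher one at 1.12. Ramp2, a partner of the calcitonin-like receptor, was close to the top of the scale in both, at 13.13, 13.12 and 13.13 in FFPE and 12.22, 12.28 and 11.98 in FF. Of 14 choroid plexus and ependymal markers 1 was higher and 4 lower (28.6%), beside 26.7% of all genes lower. Ccdc153, a gene of ciliated cells, was higher by 1.85, and Clic6, a chloride channel protein, was lower by 1.98.

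Tricarboxylic acid cycle enzymes (73.7%), mitochondrial ribosomal proteins (72.6%) and proteasome subunits (64.9%) had the largest shares of members lower by at least 2-fold among the lists, beside 48.9% of all genes at 8 to 10 and 53.6% at 6 to 8. Of 73 mitochondrial ribosomal proteins 0 were higher and 53 lower by at least 2-fold by limma, with a median of -1.58, and 2 were higher and 63 lower with no fold asked. Of 81 nuclear-encoded respiratory chain subunits 1 was higher and 47 lower, with a median of -1.17. Ndufa6, a complex I subunit, read 5.78, 5.84 and 5.50 in FFPE, against 9.75, 9.79 and 9.61 in FF, and Ndufb2 was lower by 3.70. The higher one, Cox7a2l, an assembly factor of respiratory supercomplexes, was higher by 1.13 but differed by -0.34 on its probe set of highest FF level. Mrpl27, of the mitochondrial large ribosomal subunit, was lower by 3.69. After quantile normalization the median was -0.90 for the mitochondrial ribosome, with 3 higher and 31 lower by at least 2-fold. For the respiratory chain it was then -0.64, with 4 higher and 28 lower. Of all 17098 genes 2061 were higher and 3047 lower in that setting.

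Of 69 cytosolic ribosomal proteins 0 were higher and 39 lower (56.5%) by at least 2-fold by limma. Of all genes 48.9% were lower at 8 to 10 and 26.9% at 10 and more. The median of the 69 was -1.13 (-0.68 after quantile normalization), and 3 were higher and 59 lower with no fold asked. Rps26 read 7.72, 7.32 and 7.92 in FFPE, against 10.90, 10.74 and 10.90 in FF, and Rps7 was lower by 3.08. Rpsa, also known as the laminin receptor, was 1 of the 3 higher ones, at 0.28. Of 53 translation factors 1 was higher, the repressor Eif4ebp2 at 1.83 (-0.10 on its probe set of highest FF level), and 26 were lower, among them the poly(A)-binding protein Pabpc1 at -2.63. Of 37 proteasome subunits 2 were higher, Psmb7 at 1.24 and Psmb9 at 1.09, and 24 were lower, among them Psma1 at -2.75 and Psmd6 at -2.62. The proteasome median was -1.15, or -0.42 after quantile normalization, when 2 were higher and 9 lower, beside 2061 and 3047 of all 17098 genes.

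The enzymes of the tricarboxylic acid cycle were lower in 14 of 19 cases with 0 higher by at least 2-fold by limma, with a median of -1.31. With no fold asked 2 were higher and 16 lower. After quantile normalization the median was -0.56, with 1 higher and 5 lower by at least 2-fold, beside 2061 and 3047 of all 17098 genes. Idh3b, a subunit of isocitrate dehydrogenase, read 7.68, 7.68 and 7.98 in FFPE, against 10.12, 10.06 and 10.12 in FF. Pdha1, of pyruvate dehydrogenase, was lower by 2.16. Glycolysis differed from this: of 16 enzymes 1 was higher, the regulator Pfkfb2 at 1.15, and 3 were lower, with a median of -0.09 that became 0.22 after quantile normalization. Eno2, the neuronal enolase, was higher by 0.78 and Tpi1 lower by 1.71. The difference between the 2 pathways was not tested. Of 16 cholesterol synthesis enzymes 0 were higher and 9 lower (56.25%) by at least 2-fold by limma, beside 53.6% of all genes at 6 to 8. At any size 2 of these enzymes were higher and 12 lower. Sqle and Fdps, of the squalene branch, were lower by 2.40 and 2.10.

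Of 31 heat shock and chaperone genes 2 were higher and 17 lower (54.8%), near the 48.9% and 53.6% of all genes at 8 to 10 and at 6 to 8. Their median was -1.07, or -0.27 after quantile normalization, when 4 were higher and 7 lower, beside 2061 and 3047 of all 17098 genes. Hspa1b, the inducible Hsp70, read 3.81, 4.24 and 3.81 in FFPE, against 7.84, 8.30 and 7.64 in FF, and Hspb1 was lower by 2.85. Hsp90aa1 read 10.64, 10.93 and 10.78 in FFPE, against 9.39, 9.62 and 9.63 in FF. Dnajb1, a cochaperone of Hsp70, was higher by 1.22, but the mean of its probe sets differed by -0.35. Of 18 clock genes 0 were higher and 9 lower (50%) by at least 2-fold by limma, near the 53.6% of all genes at 6 to 8. At any size 2 clock genes were higher and 14 lower. Per2 and Cry1 of the negative limb were lower by 2.28 and 1.76.

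Some long noncoding RNAs moved far in both directions. Malat1, an abundant long noncoding RNA kept in nuclear speckles, read 12.90, 12.90 and 12.88 in FFPE, against 9.33, 9.15 and 8.99 in FF. Tug1 read 9.96, 9.72 and 9.68 in FFPE, against 6.70, 6.34 and 6.06 in FF on the probe set of highest mean, but was lower by 2.54 on that of highest FF level. Jpx and Snhg14 were higher by 3.05 and 2.24, and Ftx, from the same X-inactivation locus as Jpx, was lower by 3.96. Of the 27 named long noncoding RNAs 5 (18.5%) were higher and 7 (25.9%) lower, beside 9.75% and 26.7% of all genes. Their median of -0.10 became 0.17 after quantile normalization. Over all 1413 probe sets that the reference annotates as long noncoding RNA, 13.7% were higher and 4.32% lower, with a median of 0.30. These were dim, with median levels of 4.40 in FFPE and 3.98 in FF. Of all probe sets 12.3% were higher and 19.8% lower. Of those that averaged under 5, 10.8% were higher and 4.29% lower, with a median of 0.23, near the values of the 1413.

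RNA-binding and splicing factors had 8 higher (7.55%) and 42 lower (39.6%) of 106, beside 53.6% of all genes lower at levels of 6 to 8. Their median was -0.70 (-0.18 after quantile normalization). Hnrnpab read 12.74, 12.69 and 12.75 in FFPE, against 8.95, 9.05 and 9.11 in FF, although its probe set of highest FF level differed by -1.22. Srsf10 was higher by 3.23 on the probe set used and differed by -0.78 on that of highest FF level. Prpf4b, a kinase of splicing, was lower by 3.20. Replacement histones, whose messages carry a poly(A) tail, had 0 higher and 5 lower (55.6%) of 9 by at least 2-fold by limma. This is near the 53.6% of all genes lower at levels of 6 to 8. With no fold asked 8 replacement histones were lower, and H3f3b was lower by 1.93. Replication-dependent histones, whose messages end in a stem-loop in place of a tail, had 4 higher and 4 lower (22.2% each) of 18. Of the 18, 10 averaged under 5, where 10.5% of all genes were higher and 3.85% lower. The median of the 18 was 0.05. It became -0.01 after quantile normalization and -0.15 with the arrays shifted to a common median. The higher ones were H3c1 (1.83), H1f4 (1.62), H3c4 (1.41) and H1f6 (1.32), and H2bc4 was lower by 2.04. Histone genes of a cluster are near copies, so single members are uncertain. The part of tail or level in the calls of both histone lists was not tested.

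Genes of testis, sensory receptors and muscle had more higher than lower members, unlike the hepatocyte genes described below. Of 24 sperm and testis genes 8 were higher and 0 lower by at least 2-fold by limma, and 19 were higher and 0 lower with no fold asked, with a median of 0.57 (0.36 after quantile normalization). Prm1, a protamine that packs sperm DNA, read 8.6, 8.06 and 8.30 in FFPE, against 5.58, 6.12 and 5.99 in FF, and Tnp2, a transition protein, was higher by 2.06. Of 80 olfactory, vomeronasal and taste receptors 6 were higher and 0 lower by at least 2-fold by limma, and 37 were higher and 6 lower with no fold asked, with a median of 0.21 (0.02 after quantile normalization). Vmn2r42, a vomeronasal receptor, read 6.46, 6.79 and 6.72 in FFPE, against 4.43, 4.61 and 4.48 in FF. Of 12 skeletal muscle markers 4 were higher and 1 lower, with Mb, myoglobin, higher by 2.04. Of these genes, 23 of 24, 73 of 80 and 9 of 12 averaged under 5, a band in which 51.6% of all genes passed the test as higher.

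Single members of other groups stood far out. Selenow, a small selenoprotein abundant in brain and muscle, read 11.95, 11.94 and 11.93 in FFPE, against 7.72, 7.72 and 7.56 in FF. The other 2-fold calls among 16 selenoproteins were all lower, 7 in number, among them Selenom at -2.84, and the median of -0.62 became 0.12 after quantile normalization. Pcdh8, an activity-regulated protocadherin, read 3.62, 3.94 and 3.80 in FFPE, against 7.69, 8.34 and 7.80 in FF. Of 36 protocadherins 1 was higher and 11 (30.6%) lower, near the 26.7% of all genes. Atp1b1, the beta subunit of the sodium pump, was higher by 1.49 and Atp6v1f, of the vacuolar pump, lower by 2.93. Of 78 ATPases and carriers 4 were higher and 20 (25.6%) lower, also near the share of all genes.

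Among 295 Zfp zinc finger genes 21 (7.12%) were higher and 86 (29.2%) lower, near the 9.75% and 26.7% of all genes. Zfp358 was at 2.70 and Zfp574 at -3.59. Of 17 antiviral genes 1 was higher, Ifit3 at 1.07, and 2 were lower, among them the class I antigen H2-K1 at -3.58. Their median of 0.00 became -0.02 after quantile normalization and -0.20 with the arrays shifted to a common median. Of 25 collagen and matrix genes 4 were higher, with Col3a1 at 1.30, and 5 lower, with Tnr, a matrix protein of brain, at -1.78, and the median of -0.17 became 0.00 after quantile normalization. The 10 epidermis markers had 2 higher and 1 lower, Krt10 at -2.47, with a median of 0.14 that became -0.03 after quantile normalization and -0.07 after the shift. Among 5 red cell genes Hba-a2 was higher by 3.12 and Hba-a1 lower by 2.60, and these globins are near-identical copies that probes can share.

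**Figure D3:**
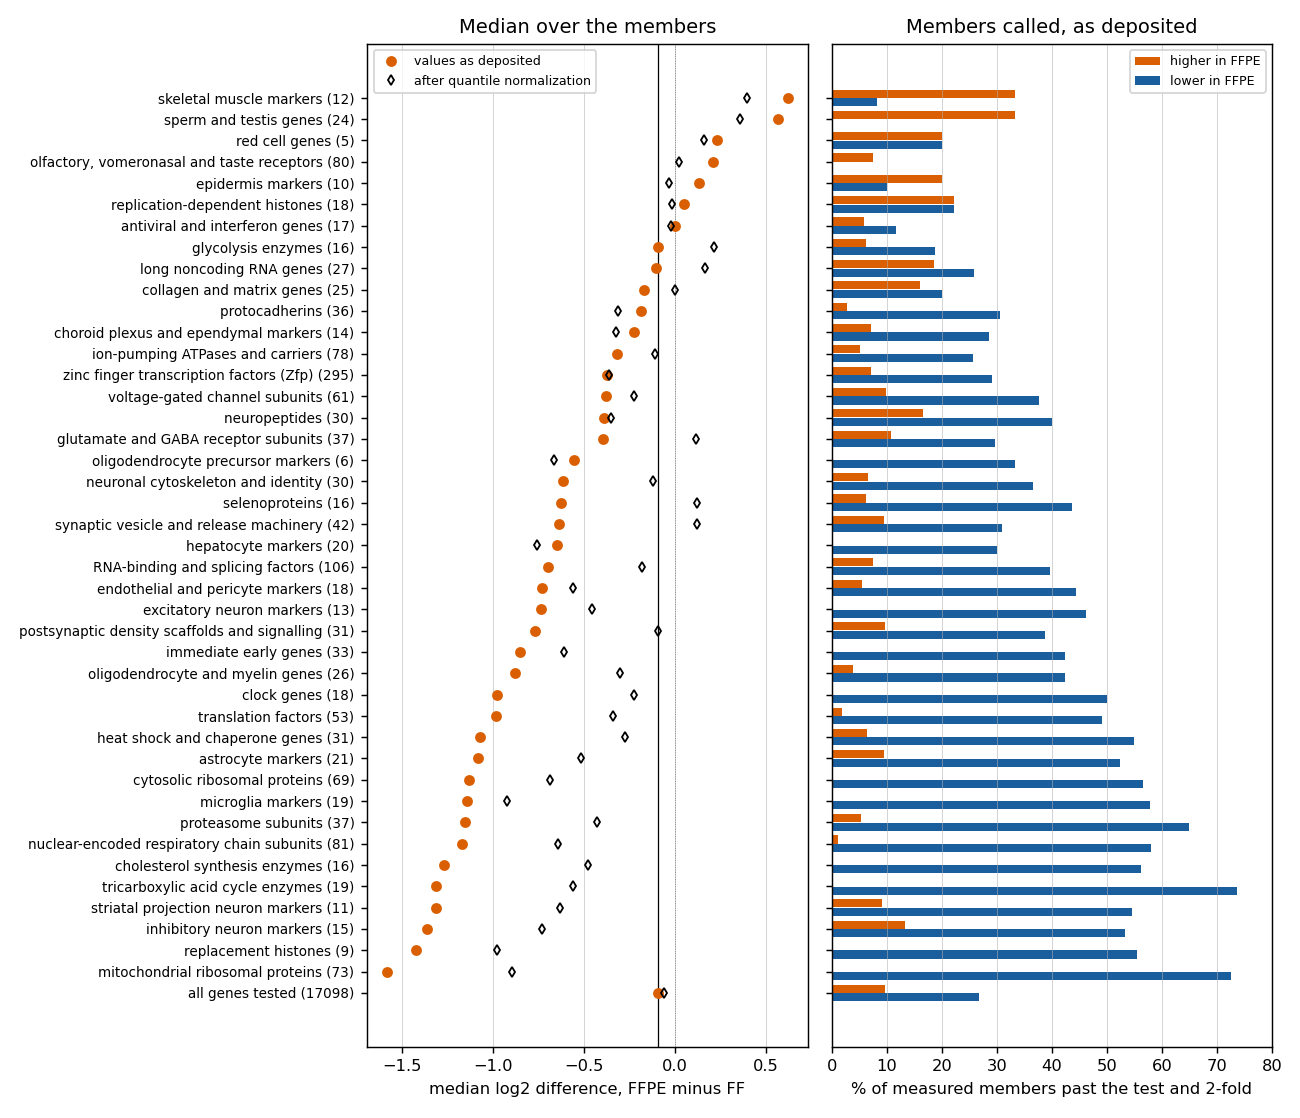
Left, the median log2 difference (FFPE minus FF) over the measured members of each gene group, with the number of members in brackets, as deposited (orange) and after quantile normalization (open), with a vertical line at the median of all genes (-0.09). Right, the percentage of members past the test and 2-fold, higher in orange and lower in blue: mitochondrial ribosomal proteins had 0 of 73 higher and 53 lower, and sperm and testis genes 8 of 24 higher and 0 lower.

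Probe sets of a gene disagreed often. Of 7180 genes with at least 2 probe sets, 926 (12.9%) had at least 1 called higher and at least 1 called lower, each by 2-fold or more, beside 12.3% and 19.8% of all probe sets called higher and lower. This share grew with the number of probe sets, from 5.4% of genes with 2 to 52.5% of genes with 6 or more. At any size, 2874 genes (40.0%) were called both ways, while 762 (10.6%) had every probe set higher and 1074 (15%) every probe set lower. The differences of a gene's probe sets spanned a median of 1.27, and spanned 2 or more in 2291 genes. The intraclass correlation over the 18981 probe sets, which is the share of variance that lies between genes, was 0.07 for the difference, against 0.47 for the FFPE level and 0.37 for the FF level.

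In the 926 genes, the 1110 probe sets called higher had median levels of 6.19 in FFPE and 4.43 in FF, and the 1172 called lower had 5.63 in FFPE and 7.61 in FF. Thus the probe sets that frozen tissue read well were the lower ones, in 890 of 926 genes counted by the probe set of highest FF level, a count that the choice of discordant genes partly fixes. Discordance was found in 10 of 20 postsynaptic genes with several probe sets, in 10 of 32 synaptic vesicle genes and in 22 of 72 RNA-binding genes, which carried means of 3.50, 2.94 and 3.36 probe sets. It was found in 0 of 40 respiratory chain genes and 2 of 33 cytosolic ribosomal protein genes. These carried means of 2.5 and 2.85 probe sets. Of all genes with 2, 3 and 4 probe sets, 5.4%, 17.5% and 29.4% were discordant. The lists named here are some of 43, and the part of probe set number in their shares was not tested.

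Camk2a had the widest gap, 10.03. Its 6 probe sets differed by 6.81, 5.21, 0.24, -0.24, -1.38 and -3.21. Probe set 1442707_PM_at read 11.59, 11.78 and 11.85 in FFPE, against 6.63, 6.36 and 6.59 in FF. Probe set 1443876_PM_at read 4.49, 4.67 and 4.76 in FFPE, against 7.79, 7.88 and 7.89 in FF. Probe set 1437125_PM_at sat near 10 in both. Single Camk2a probe sets thus ran from 112-fold higher to 9.27-fold lower in FFPE.

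The same spread was found in Dclk1, a microtubule-associated kinase of neurons, whose 8 probe sets ran from 4.62 to -2.46. On 1451917_PM_a_at it read 9.93, 9.74 and 9.90 in FFPE, against 5.17, 5.15 and 5.39 in FF, and on 1436659_PM_at 5.6, 5.43 and 5.8 in FFPE, against 8.11, 7.98 and 8.11 in FF. Cd47 ran from 5.96 to -1.55 over 5 probe sets, and Rab2a from 5.78 to -1.15 over 6. Ppp1r9a, the actin-binding neurabin of dendritic spines, ran from 4.48 to -2.47 and Washc2, of the endosomal WASH complex, from 2.62 to -4.38. The remaining genes of the 10 widest gaps were Tmem191c (gap 6.79), Srgap3 (6.72), Prrc2a (6.61) and Cdk14 (6.59).

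The genes with the most probe sets all called in 1 direction were Zfp148, with 6 lower by 0.92 to 2.71, Ndufa7, with 5 lower by 1.5 to 5.59, Cotl1, with 5 lower by 0.33 to 4.69, and Slc25a29, a mitochondrial carrier, with 5 lower by 0.38 to 0.88. Lats2, a kinase of the Hippo pathway, had 5 probe sets higher, by 0.39 to 2.04. Probe sets of a gene can read the same transcripts, so they are not independent readings.

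**Figure D4:**
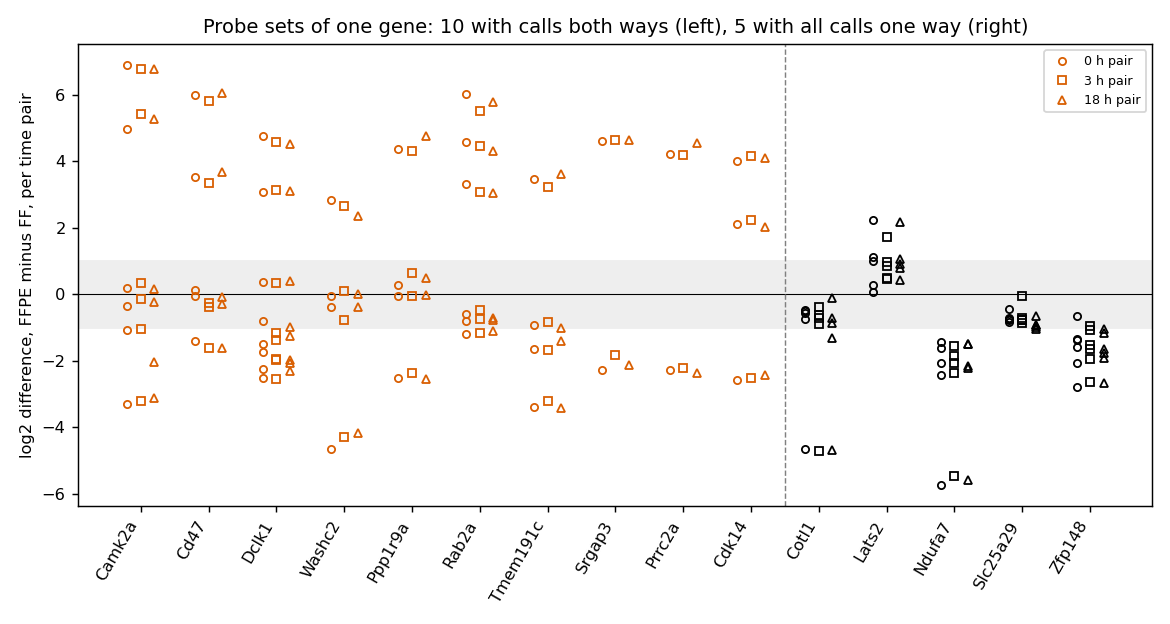
Log2 difference (FFPE minus FF) of every probe set of the 10 genes with the widest gap between calls in opposite directions (left of the dashed line) and of 5 genes with all calls in 1 direction (right), with a marker for each time pair and a grey band for less than 2-fold. Camk2a runs from 6.81 to -3.21 while the 3 markers of a probe set mostly lie close together.

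Longer genes were lower more often. In 5 equal bins of gene span by the reference annotation, the shortest bin had a median difference of 0.10 and 21.4% of genes lower, and the longest bin a median of -0.43 and 34.8% lower. The median FF level of these bins also differed, 4.70 in the shortest and 6.19 in the longest, and its part in the result was not tested.

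Time pairs disagreed for few probe sets. The 3 pair differences spanned 1 or more in 406 of 45037 (0.901%), and in 147 of these the 0 h pair was the odd one. Hepatocyte transcripts were among them. Alb, serum albumin, read 7.57, 7.03 and 7.06 in FFPE, against 8.74, 6.11 and 5.53 in FF, and Cyp3a11, a liver cytochrome, 4.03, 3.76 and 3.65 in FFPE, against 7.74, 4.60 and 4.11 in FF. The markers averaged above their later values at 0 h in both kinds of tissue. Mup3, a major urinary protein made in liver, fell most of them in FFPE, where Alb and Cyp3a11 fell less. It read 7.12, 3.56 and 3.39 in FFPE, against 9.56, 6.75 and 5.98 in FF. Of 20 hepatocyte genes 0 were higher and 6 lower by at least 2-fold by limma, with 2 higher and 8 lower at any size and a median of -0.65. Without the 0 h pair 2 were higher, Alb at 1.23 and Fgb, a fibrinogen chain, at 1.13, and 3 were lower, and the median was -0.18. Serpina1c, a protease inhibitor, had pair differences of -4.88, -2.44 and -2.38, and was at -3.23 with and -2.41 without the 0 h pair. Cyp3a11 was at -1.67 with and -0.65 without it, and Mup3 at -2.74 with and -2.89 without it. Ttr, the thyroxine carrier of choroid plexus and liver, read 5.77, 12.52 and 12.03 in FFPE, against 8.68, 12.72 and 12.21 in FF. Ttr was thus low at 0 h in both kinds of tissue. Without the 0 h pair, 5537 probe sets were higher and 8898 lower by at least 2-fold.

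Brain and liver shared much of the difference and parted on many probe sets. The FFPE minus FF difference in brain correlated with that in liver at r = 0.733 across probe sets, a description over probes that share the array design and both kits. Of the 14468 brain calls of at least 2-fold, 13107 (90.6%) had the same sign of mean difference in liver. The difference of the differences, brain minus liver, was tested over all 12 arrays with tissue by time as blocks. It was positive at an adjusted p under 0.05 for 7837 probe sets (17.4%) and negative for 10426 (23.1%), of which 2087 (4.63%) and 4826 (10.7%) also reached 2-fold. Leaving out a time leaves fewer arrays in the fit. Positive counts were then 4939, 4019 and 7089 without the 0, 3 and 18 h arrays, and negative counts 7748, 6960 and 10332. Positive counts of at least 2-fold were 2217, 2058 and 2294, and why the counts without a fold fell was not tested. The test of brain minus liver passed for 3223 of the 5554 brain increases (58.0%) and for 6529 of the 8914 brain decreases (73.2%). Of all probe sets 40.6% passed. The increases and decreases were chosen by the brain difference that enters brain minus liver, so their higher shares are partly fixed by the choice. After quantile normalization, 2545 were positive and 3219 negative by at least 2-fold, so the share of positive ones was 44.2%, against 30.2% as deposited.

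The largest positive values were found in Slc1a2, Camk2a, Map1b and Slc3a1. Slc1a2 exceeded its liver difference by 6.2, with liver means of 5.45 in FFPE and 3.46 in FF. Camk2a (1452453_PM_a_at) exceeded it by 5.75, Map1b by 5.59, Bsn by 4.67 and Dlg2, the postsynaptic scaffold PSD-93, by 4.48. Dlg2 read 8.86, 8.57 and 8.51 in FFPE brain, against 4.08, 4.27 and 4.16 in FF brain, and its liver means were 3.57 in both. Tubb4a was higher in fixed brain by 2.55 and lower in fixed liver by 1.83. Slc3a1, a chain of the cystine transporter, read 9.21, 9.27 and 9.31 in FFPE brain, against 4.58, 4.73 and 4.90 in FF brain, while its liver means were 8.40 in FFPE and 8.86 in FF. The span of Slc3a1 overlaps that of Prepl, and the strand that the 2 kits read from such a pair was not resolved here. Of the 41 genes named for the largest brain differences or brain minus liver values, 22 have a span that another gene overlaps. Among them are C1qbp with Rpain, Dpysl2 with Pnma2 and Scand1 with Cnbd2. Tmem229a exceeded its liver difference by 4.31.

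On the negative side stood Tomm40l, a mitochondrial import channel protein, at -5.30. It was lower in fixed brain, at 4.32, 4.28 and 4.49 in FFPE against 6.0, 6.13 and 6.01 in FF, and higher in fixed liver, with means of 8.62 in FFPE and 5.0 in FF. The span of Tomm40l overlaps those of Apoa2 and Nr1i3. Rims2, a presynaptic active zone protein, read 5.97, 6.05 and 6.2 in FFPE brain, against 8.82, 9.12 and 9.0 in FF brain, and its brain minus liver value was -4.61. C1qtnf4 (-4.61), Cracdl (-4.49), Hectd2 (-4.40), Fam171a2 (-4.24) and Ly6h (-4.23) followed. The eighth was another Camk2a probe set (1457311_PM_at) at -4.22, so Camk2a stood at both ends.

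Probe sets bright in frozen brain and frozen liver were also compared. Among the 1969 probe sets at 8 or more on all 6 FF arrays, the brain and liver differences correlated at r = 0.813. Their medians were -1.33 in brain and -0.60 in liver. As FF values are subtracted in each difference, choosing high FF values partly fixes the negative medians. The test of brain minus liver passed for 1311 of these 1969 (66.6%), beside 40.6% of all probe sets, most of which are dimmer. These values describe the chosen set only.

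**Figure D5:**
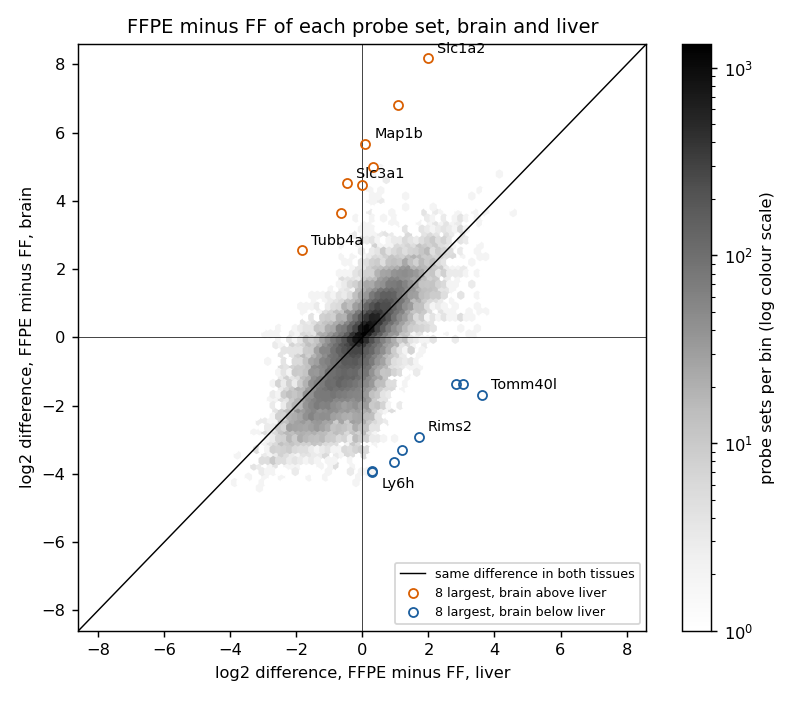
FFPE minus FF log2 difference of each of 45037 probe sets in brain (vertical axis) and in liver (horizontal axis), as counts per hexagon on a log colour scale, with a line for equal differences. The open circles are the 8 largest brain minus liver values in each direction: Slc1a2 lies at 8.18 in brain and 1.98 in liver, and Tomm40l at -1.68 in brain and 3.62 in liver.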

How the data were processed

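The deposited log2 values, 1 per probe set and array, are, per the submitters' processing notes, the output of Affymetrix Expression Console's RMA, a routine for background, scaling between arrays and summary of probes. Whether all 12 arrays went through it in 1 run is not given in the sources used here. Depth does not exist for arrays, so the 3 arrays a group limit the precision. Gene names came from the platform annotation, and 28689 of 28899 probe sets with 1 gene were found in the RefSeq table of assembly GRCm38.p6.

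From the deposited values, differences were fitted with limma 3.58.1 in R 4.3.3 (lmFit, eBayes), with two-sided tests, Benjamini-Hochberg adjustment over the 45037 probe sets or the 17098 genes and a threshold of 0.05. Time was a block, which left 2 residual degrees of freedom, moderated with 4.98 prior ones. The pairing comes from the times in the labels, and deviations from the group means of arrays of the same time correlated at 0.0978 to 0.192. Brain minus liver used all 12 arrays, 8 coefficients and 4 residual degrees of freedom. On simulated data with 200 changed features, the probe set fit recovered 91.5% of 2-fold and 0% of 1.5-fold changes, the gene fit 96.5% and 0%, and the brain minus liver fit 55.5% and 0%.

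The members, the gene lists and the rules for naming genes were chosen with earlier results of these data known. Named are the 15 largest changes in each direction, up to 4 passing members of a list in each direction, the 10 widest and 5 most uniform genes among those with several probe sets, and the 8 largest brain minus liver values in each direction. Of 43 lists 42 had measured members, and transcripts encoded in mitochondria had 0. Alternatives were other scalings, a filter on low values (at or above the array median on at least 3 brain arrays), no block, other eBayes options (trend, robust), only probe sets ending in _at, each time left out, all 12 arrays in 1 fit, other choices of probe set and other fold limits. Gene spans and overlaps came from the RefSeq table, and probe sequences and probe positions were not used here.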

Additional observations from a re-analysis of the deposited data

Results flagged for a closer look

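The probe sets named as the 15 largest increases and decreases, 1 per named gene, were also set against liver by limma's interaction test, which 29 of the 30 passed, beside 40.6% of all probe sets. They were chosen by the brain difference that enters brain minus liver, so an excess in brain is partly fixed by the choice and is given as a description. All 15 increases passed, and brain minus liver was Slc1a2 (6.2), Camk2a (5.75), Vamp2 (3.91), Cd47 (1.14), Rab2a (0.65), Map1b (5.59), Atp6v0a1 (3.29), Tubb2a (1.70), Dpysl2 (3.48), Bsn (4.67), R3hdm1 (2.00), Irf2bp2 (0.74), 1810014B01Rik (-1.04), Srgap3 (3.88), Ttll7 (3.87). The value was negative for 1810014B01Rik alone, whose liver difference was 5.69. Of the 15 decreases 14 passed, with Ndufa7 (-3.57), Stx6 (-1.77), Sf3b6 (-1.96), C1qbp (-2.11), Cnn3 (-1.76), Scand1 (-0.99), Cotl1 (-1.42), Cmtm6 (-2.08), Slc25a39 (-3.18), Klf9 (-1.26), Snrnp40 (-1.74), 1110008P14Rik (-2.42), Rpl37 (-1.23), Rabac1 (-0.97). The exception was Scpep1 at 0.10, with an adjusted p of 0.82. Others were named for the size of this contrast itself, which their values therefore only describe, and these were Slc3a1 (4.99), Dlg2 (4.48), Tubb4a (4.38), Tmem229a (4.31), Tomm40l (-5.30), Rims2 (-4.61), C1qtnf4 (-4.61), Cracdl (-4.49), Hectd2 (-4.40), Fam171a2 (-4.24), Ly6h (-4.23), Camk2a (-4.22). The mean differences of Tomm40l, Rims2, C1qtnf4, Cracdl, Hectd2, Fam171a2, Ly6h and Camk2a (1457311_PM_at) were negative in brain and positive in liver. Those of Slc3a1, Tubb4a and Tmem229a were positive in brain and negative in liver, and that of Dlg2 was -0.0033 in liver. Liver levels of several of these genes are near the floor of the scale, as for Slc1a2 in FF liver at 3.46, and the part of level in these differences was not tested. No group held the 4 arrays needed to look for a single outlying array.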

How the results depend on the processing

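All 314 alternative values of the 30 named probe sets and all 144 of the named brain minus liver values kept their direction and their side of the threshold. With the filter on low values, 8802 probe sets and 3167 genes were higher, and brain minus liver was positive for 4784; the filter leaves fewer features to test. At 1.5-fold 10592 probe sets were higher, and at 4-fold 1196 were higher and 3072 lower. Brain minus liver was positive for 4019 to 7089 probe sets without single times, and the cause was not tested. Calls both ways at any size held in 2874 genes. Without the replicate block, 18167 probe sets were higher and 16119 lower, and the block changed no other count by over 1.5 times.

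List medians that turned sign did so as follows, with causes not tested. After quantile normalization they were 0.1246 for synaptic vesicles, 0.12 for receptors, 0.2172 for glycolysis, 0.1694 for long noncoding RNA, 0.0039 for collagen, 0.121 for selenoproteins, -0.0333 for epidermis, -0.0124 for replication-dependent histones and -0.0225 for antiviral genes. With arrays shifted to a common median, which moved the median of all genes to -0.30, they were -0.0667 for epidermis, -0.15 for those histones and -0.20 for antiviral genes. Over all probe sets of the members they were 0.1933 for receptors, 0.0783 for channels, 0.065 for glycolysis, -0.02 for those histones, 0.06 for long noncoding RNA and 0.0567 for collagen. Leaving out 1 time gave medians of -0.005 to 0.0675 for those histones and 0.00 to 0.03 for antiviral genes.

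Among the list genes named, 17 of 1499 alternative values turned sign, all with another choice of probe set. With the probe set of highest FF mean, Cox7a2l was at -0.34, Eif4ebp2 at -0.10, Gabrg3 at -0.25, Gfap at -1.66, Hnrnpab at -1.22, Srsf10 at -0.78, Syn3 at -2.66, Syt7 at -2.35 and Tug1 at -2.54. With the mean over probe sets, Cplx2 was at -0.0933, Dnajb1 at -0.35, Gfap at -0.0622, Pde10a at 0.8807, Syn3 at -0.0944, Syp at -0.0067, Syt7 at -0.3583 and Tug1 at -0.23.

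The limits are 1 array per condition, with no stated number of animals, and preservation and kits that changed together. In simulation with 200 changed features a 1.5-fold change was not recovered, although smaller differences passed in the real fit, where most probe sets differ. Nonspecific controls reached 3.83 in FF brain outside the set of highest GC, so levels under 4 lie close to background.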

Other observations

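The manufacturer's control probe sets, which the comparison left out, differed between the preservations as well. The 18S ribosomal RNA control read 12.75, 12.74 and 12.80 in FFPE brain, against 11.11, 11.16 and 10.88 in FF brain on its 3′ probe set. For Gapdh, the 3′ control minus the 5′ control was 1.22, 1.25 and 1.22 in FFPE, against -0.02, 0.00 and 0.05 in FF. For Actb it ran the other way, at -0.12, 0.05 and -0.10 in FFPE, against 1.21, 1.21 and 1.32 in FF. The gap of Pcx, pyruvate carboxylase, was 0.49, 0.66 and 0.44 in FFPE, against 3.29, 3.45 and 3.34 in FF, and that of Tfrc, the transferrin receptor, was -1.24, -1.46 and -1.10 in FFPE, against 0.04, -0.01 and -0.09 in FF. These gaps differed between the preservations in both directions.

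All 23 nonspecific control probe sets were lower in FFPE brain. The set with a GC count of 25 read 2.90 to 2.92 in FFPE, against 5.22 to 5.54 in FF, and the other 22 ranged from 2.69 to 3.19 in FFPE and from 2.76 to 3.83 in FF. Controls that stand for no mouse gene differed in both directions. The control dap read 3.63, 3.59 and 3.60 in FFPE, against 8.01, 8.09 and 8.21 in FF on its 3′ probe set. All probe sets of the controls bioB, bioC, bioD and cre were higher in FFPE. On its 3′ probe set bioB read 9.12, 9.23 and 9.25 in FFPE, against 6.94, 7.10 and 6.77 in FF. These values are no readings of brain RNA, and the part of labelling or scaling in them was not tested.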
